A study of Mus musculus with 12 samples.

Results

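The genes of sterol and fatty acid synthesis were followed in mouse yolk sacs that carried or lacked Hypb, the histone methyltransferase gene now named Setd2. The set was a fixed list of 34 genes: 19 enzymes of the mevalonate and sterol pathway, 6 genes of SREBP control and sterol transfer, and 9 genes of fatty acid synthesis and desaturation. Of these, 33 had a probe set of their own among the 18193 genes tested, and Acat2 was not analysed here. The list was chosen with earlier results of these data known, so member shares set against all genes below are descriptions. Each gene was read by its probe set with the highest mean over all arrays, a choice that does not use genotype or stage. The members were bright on these arrays. Their median probe set lay at percentile 77.5 of all genes tested, and the dimmest, Fads2, lay at percentile 53.1.

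Yolk sacs were collected from wild type (Hypb+/+) and knockout (Hypb-/-) embryos of the strain given as 129Sv/C57BL/6, at embryonic day 9.0 (E9.0) and at E10.5. No other allele or treatment is named in the labels, and they do not say how the knockout allele was made. Each of the 4 groups held 3 single-colour Affymetrix arrays that cover the mouse transcriptome. By the sample description each array read a pool of 4 yolk sacs. The extract protocol speaks instead of RNA from individual yolk sacs, 4 per group, and the description is followed here. The design text places E9.0 before severe visible defects of the knockout embryo and E10.5 shortly before its death, so at E10.5 the comparison is between a normal and a dying conceptus.

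Cells build cholesterol from acetyl-CoA through mevalonate, farnesyl diphosphate, squalene and lanosterol, and fatty acids from the same acetyl-CoA through malonyl-CoA. The genes of both branches are targets of the SREBP transcription factors. When membranes are short of sterol, Scap escorts SREBP to the Golgi, where it is cleaved and released to the nucleus, and when sterol is plentiful the Insig proteins hold both in the endoplasmic reticulum. The visceral endoderm of the yolk sac takes up maternal nutrients and assembles the lipoproteins that feed the early embryo, which makes it a tissue of heavy lipid traffic.

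Values are log2 expression values as the authors deposited them, so a change of 1 is a doubling, and ± marks an SD over 3 arrays. Setd2 itself was lower in both sets of knockout arrays, at 7.69 ± 0.26 against 8.98 ± 0.13 at E9.0 and 7.88 ± 0.16 against 8.71 ± 0.06 at E10.5, with no overlap between genotypes. Array medians lay between 5.27 and 5.34. The spiked control probe sets set replicate 3 apart from replicates 1 and 2: at E9.0 the bioC minus bioB difference was 0.06 and 0.14 on the replicate 3 arrays and 1.55 to 1.66 on the others, and at E10.5 the 3' minus 5' difference of dap was 1.85 and 1.87 against 1.23 to 1.44. At E10.5 bioC minus bioB did not set replicate 3 apart (1.61 and 1.705 against 1.54 to 1.655). The dap difference did so at E9.0 as well (1.83 and 1.53 against 1.19 to 1.30). No label names a batch, and batch below means this split by replicate number. Replicate 3 of each stage holds both genotypes, so values are given below with and without it. Marker genes of other cells also moved at E10.5. The mean over 6 embryonic heart genes ran from 6.01 to 7.73 in knockout and from 4.93 to 5.15 in wild type arrays, and that of 8 mesothelium and mesenchyme genes from 9.82 to 10.41 against 9.41 to 9.62. The 8 endothelial genes averaged 7.40 to 7.97 against 7.05 to 7.42, and the 7 genes of primitive red cells 10.47 to 11.17 against 11.05 to 11.22. The 11 visceral endoderm genes averaged 12.02 to 12.14 against 12.13 to 12.20. Of these 11, 9 had a change below 0 at E10.5, with a median of -0.18. Wholly below wild type lay 6 of them and wholly above 1, against 11.3% and 11.5% of all genes. At that stage 1 was called lower, where 3.16% of all genes were. The 7 macrophage genes averaged 7.55 to 7.76 against 7.55 to 7.59, with Csf1r, Tyrobp and Cx3cr1 called higher and Fcgr3 lower. At E9.0 the genotypes overlapped in the mean over the visceral endoderm list (12.24 to 12.30 in knockout, 12.20 to 12.28 in wild type) and in those over the mesenchyme, heart and macrophage lists. Within the heart list all 6 genes had a change below 0 at E9.0, with a median of -0.79, 2 of them wholly below wild type and 0 called. Of the macrophage genes at E9.0, Cd68 was called higher (0.65) and Tyrobp lower (-0.61), and 5 of the 7 had an unadjusted p under 0.05. In such bulk samples fewer cells of a type and less RNA per cell cannot be told apart, and the part of these cell types in the results below was not tested.

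At E9.0 most sterol genes had higher values in the knockout than in wild type, and at E10.5 most had lower values. At E9.0, 30 of the 33 members had a change above 0, with a median of 0.32 against -0.01 over all genes tested. The test was passed by 5 members, and all were higher: the sterol enzymes Idi1, Sqle and Lss, the SREBP regulator Insig1 and the acetyl-CoA supplier Acly. Among all genes, 0.55% were called higher and 0.632% lower at that stage (limma with Benjamini-Hochberg adjustment, threshold 0.05). All 3 knockout arrays lay above all 3 wild type arrays in 16 members and below them in 0, where 8.56% of all genes lay wholly above and 9.42% wholly below.

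At E10.5, 24 of the 33 members had a change below 0, and the median was -0.23 against -0.01 over all genes. Msmo1, Mvd and Tm7sf2, all enzymes of sterol synthesis, were called lower and 0 members were called higher. An unadjusted p under 0.05 was held by 9 members (27.3%), 8 lower and Acly higher, against 20.2% of all genes. The background was wider at this stage, with 4.12% of genes called higher and 3.16% lower. The knockout arrays lay wholly below wild type in 9 members and wholly above in 2 (Acly and Acss2), against 11.3% and 11.5% of all genes.

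**Figure D1:**
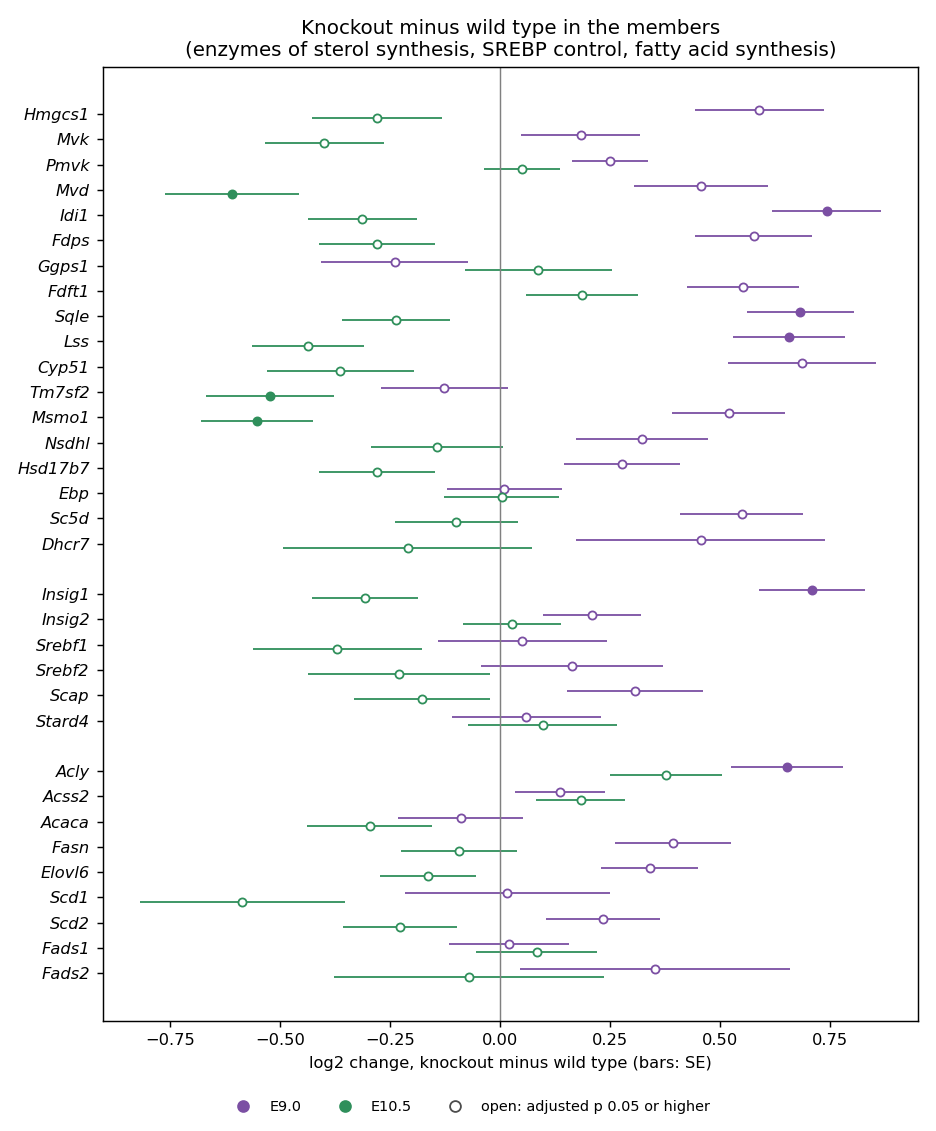
Log2 change, knockout minus wild type, of the 33 members at E9.0 (purple) and E10.5 (green), with the SE of the fit as bars and filled points where the adjusted p was under 0.05. Most sterol enzymes sit right of 0 at E9.0 and left of it at E10.5, with Pmvk, Ggps1, Tm7sf2, Ebp and Fdft1 outside that pattern.

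Of the 33 members, 22 (66.7%) had a change above 0 at E9.0 and below 0 at E10.5, against 3480 of 18193 genes (19.1%). This turn was not particular to the members: all 7 primitive red cell genes had it, with medians of 0.18 and -0.20 and 0 called. The 2 knockout comparisons share no arrays, but they share the estimate of the spread. In 5 members, Mvd, Idi1, Lss, Msmo1 and Insig1, the knockout arrays lay wholly above wild type at E9.0 and wholly below it at E10.5, a pattern held by 0.291% of all genes. The difference between the knockout effects, E10.5 minus E9.0, was itself tested in the same fit. Its median over members was -0.48, against about 0 over all genes, and 4 members were called lower and 0 higher: Lss, Idi1, Insig1 and Msmo1. Over all genes, 0.0824% were called lower and 0.104% higher in that test. The difference was also below 0 in 7 of 7 primitive red cell genes (median -0.31) and 14 of 15 fatty acid oxidation genes (-0.21). So it was in 10 of 11 visceral endoderm genes (-0.13), with 0 called in these lists. It was above 0 in 8 of 8 endothelial genes (0.33).

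The promoters of these genes were read for the motifs known from sterol-regulated promoters. RefSeq promoters (GRCm38.p6) of 26 of the 33 members were at hand, 34 in all, and the 250 bases before each start were searched on both strands. The letters searched were TCACNCCAC for an SREBP site, CACGTG for an E-box, CCAAT for the box of NF-Y (the factor that binds next to SREBP), and GGGCGG for the box of Sp1. The sequences shown belong to the 4 genes called in the test of the difference and to Hmgcs1, the member whose promoter held the SREBP letters. For each gene 1 promoter is shown, and any other listed for it was counted below without being shown. Each is the 250 bases up to the start, in the direction of transcription, with every match of the 4 motifs on either strand in capitals. Idi1 lies at chr13:8885356-8885605 (plus strand), Lss at chr10:76531355-76531604 (plus), Msmo1 at chr8:64733579-64733828 (minus), Insig1 at chr5:28071162-28071411 (plus) and Hmgcs1 at chr13:119690101-119690350 (plus).
Idi1: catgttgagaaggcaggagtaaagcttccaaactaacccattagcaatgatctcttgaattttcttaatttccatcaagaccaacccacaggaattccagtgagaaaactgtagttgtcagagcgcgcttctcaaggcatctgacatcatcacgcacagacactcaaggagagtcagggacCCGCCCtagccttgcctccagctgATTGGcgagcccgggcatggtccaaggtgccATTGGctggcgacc
Lss: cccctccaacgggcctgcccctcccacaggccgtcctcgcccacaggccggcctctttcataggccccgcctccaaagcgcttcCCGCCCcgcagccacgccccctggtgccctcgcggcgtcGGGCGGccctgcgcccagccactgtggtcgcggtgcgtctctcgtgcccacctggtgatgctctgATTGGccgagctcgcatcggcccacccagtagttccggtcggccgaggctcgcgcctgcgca
Msmo1: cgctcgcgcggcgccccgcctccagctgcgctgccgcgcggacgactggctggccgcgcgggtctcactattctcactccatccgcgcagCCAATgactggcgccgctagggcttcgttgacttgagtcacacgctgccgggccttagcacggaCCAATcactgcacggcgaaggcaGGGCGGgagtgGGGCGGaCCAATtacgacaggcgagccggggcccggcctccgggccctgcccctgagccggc
Insig1: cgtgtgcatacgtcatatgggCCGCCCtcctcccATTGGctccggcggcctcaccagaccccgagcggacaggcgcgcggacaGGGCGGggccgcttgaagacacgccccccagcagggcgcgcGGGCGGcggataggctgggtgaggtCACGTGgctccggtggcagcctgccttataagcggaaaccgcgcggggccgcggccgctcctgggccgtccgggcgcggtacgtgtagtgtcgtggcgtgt
Hmgcs1: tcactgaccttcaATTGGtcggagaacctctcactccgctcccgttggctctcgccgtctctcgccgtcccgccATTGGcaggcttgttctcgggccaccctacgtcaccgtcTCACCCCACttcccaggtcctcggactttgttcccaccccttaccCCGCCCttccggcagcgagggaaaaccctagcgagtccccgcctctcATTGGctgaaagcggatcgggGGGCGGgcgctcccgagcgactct
All 5 hold the NF-Y letters, which appear reversed as ATTGG in Idi1, Lss, Insig1 and Hmgcs1 and forward in Msmo1, where 3 copies stand. The E-box of this group is in Insig1. No 2 of the motifs marked overlap.

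Among the 15 sterol enzymes with a promoter in the table, all 15 held the NF-Y letters in at least 1 promoter, against 39.4% of the genes tested. By promoter this was 15 of 18 (83.3%) against 34.7% of the promoters of genes tested and 33.8% of all 32851 promoters of the table. At least 2 copies stood in 10 of the 18 (55.6%), against 11.4% and 10.1%. Of the promoters of fatty acid genes, 2 of 6 held them. The Sp1 letters stood in 24 of the 34 member promoters (70.6%), against 48.3% of the promoters of genes tested and 32.7% of all promoters. The E-box stood in 5 (14.7%) against 7.38% of the promoters of genes tested and 6.02% of all. The SREBP letters stood in 1 (2.94%) against 1.05% of either. A match is a string of letters and not a measured binding site.

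The first steps of the pathway joined the pattern unevenly. Hmgcs1, which condenses acetyl-CoA into HMG-CoA, read 10.51, 10.89 and 10.52 in wild type replicates 1 to 3 at E9.0 and 11.32, 11.23 and 11.14 in knockout. At E10.5 the readings were 11.52, 11.52 and 11.68 in wild type and 11.18, 11.07 and 11.63 in knockout. The genotypes were apart at E9.0 and overlapped at E10.5. The change was 0.59 (SE 0.15, limma adjusted p = 0.0805) at E9.0 and -0.28 (adjusted p = 0.324) at E10.5. Its probe set is of a kind that can share probes with other transcripts, and when all probe sets were tested 1 of its 4 bright probe sets passed at E9.0 (0.58, adjusted p = 0.0374), while the others gave 0.59 (adjusted p = 0.116), 0.59 (0.141) and 0.75 (0.204).

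Mvk, which phosphorylates mevalonate, overlapped between genotypes at E9.0, at 7.68, 7.79 and 7.96 in wild type and 7.83, 8.10 and 8.05 in knockout. At E10.5 its wild type arrays read 8.25, 8.22 and 8.05 and its knockout arrays 7.50, 7.80 and 8.02. All the E10.5 knockout values lay below the wild type ones, replicate 3 by the least, with a change of -0.40 (SE 0.14, adjusted p = 0.104). Pmvk, the next kinase, had changes of 0.25 and 0.05 and passed neither test.

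Mvd, which decarboxylates mevalonate diphosphate, read 6.66, 6.78 and 6.82 in E9.0 wild type and 7.14, 7.14 and 7.35 in E9.0 knockout. At E10.5 the values were 7.37, 7.57 and 7.60 in wild type and 6.68, 6.71 and 7.32 in knockout. The knockout arrays were thus all above wild type at the earlier stage and all below it at the later one, where replicates 1 and 2 stood far lower than replicate 3. The change was 0.46 (SE 0.15, adjusted p = 0.204) at E9.0. At E10.5 Mvd fell, by 0.61 (SE 0.15, adjusted p = 0.0306), and its effects differed between stages by -1.07 (adjusted p = 0.0770). A second, dimmer probe set gave 0.23 and -0.38.

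Idi1, the isomerase that makes dimethylallyl diphosphate, had the smallest p of the members at E9.0. It read 9.54, 9.68 and 9.26 in wild type and 10.28, 10.27 and 10.16 in knockout. The E10.5 readings were 10.27, 10.17 and 10.36 in wild type and 9.75, 10.00 and 10.11 in knockout. The E9.0 knockout arrays thus stood near the E10.5 wild type level, and the groups overlapped at neither stage. Idi1 rose by 0.74 at E9.0 (SE 0.12, 1.67-fold, adjusted p = 0.0196), its E10.5 change was -0.31 (adjusted p = 0.170), and the difference of -1.06 passed the test (SE 0.18, adjusted p = 0.0363). With all probe sets tested, its second probe set gave 0.85 (adjusted p = 0.0316) and -0.59 (adjusted p = 0.0414). In that fit the second probe set also passed for the difference (-1.44, adjusted p = 0.0296), and the brightest did not (adjusted p = 0.0701).

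Fdps makes farnesyl diphosphate, the branch point to sterols, dolichol and prenylated proteins. It read 9.74, 9.94 and 9.70 in E9.0 wild type against 10.32, 10.43 and 10.36 in knockout, and 10.81, 10.77 and 10.92 in E10.5 wild type against 10.22, 10.66 and 10.78 in knockout. The genotypes were apart at E9.0 and overlapped narrowly at E10.5, through replicate 3. The changes were 0.58 (SE 0.13, adjusted p = 0.0584) and -0.28 (adjusted p = 0.261). Ggps1, which leads from there to geranylgeranyl diphosphate and so away from sterols, had changes of -0.24 and 0.09, and passed neither test.

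Fdft1, squalene synthase and the first enzyme committed to sterols, read 10.22, 10.38 and 9.91 in E9.0 wild type and 10.83, 10.77 and 10.57 in knockout. In E10.5 yolk sacs it read 11.28, 11.51 and 11.27 in wild type and 11.56, 11.61 and 11.45 in knockout. The knockout was higher on all arrays at E9.0, and the groups overlapped at E10.5. Its changes were 0.55 (SE 0.13, adjusted p = 0.0592) and 0.19 (adjusted p = 0.476), both above 0. Its probe set can share probes with other transcripts, and a second one gave 0.64 at E9.0 (adjusted p = 0.0327 with all probe sets tested) and 0.10 at E10.5.

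Sqle, the squalene epoxidase, read 9.19, 9.56 and 9.21 in E9.0 wild type and 10.02, 10.01 and 9.98 in knockout. At E10.5 its arrays gave 10.33, 10.14 and 10.26 in wild type and 9.87, 9.93 and 10.22 in knockout. The E9.0 groups were far apart and the E10.5 groups overlapped through replicate 3 of the knockout. Sqle rose by 0.68 at E9.0 (SE 0.12, 1.61-fold, adjusted p = 0.0225), and its E10.5 change was -0.24 (adjusted p = 0.312). The difference of -0.92 missed the threshold (adjusted p = 0.0514).

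Lss, which closes the sterol rings to lanosterol, read 7.90, 8.26 and 8.29 in E9.0 wild type and 8.76, 8.68 and 8.98 in knockout. At E10.5 it read 8.86, 8.90 and 8.83 in wild type and 8.31, 8.35 and 8.62 in knockout. No arrays overlapped at either stage, and the direction turned. It rose by 0.66 at E9.0 (SE 0.13, adjusted p = 0.0291), its E10.5 change was -0.44 (SE 0.13, adjusted p = 0.0589), and the difference of -1.09 had the smallest p of the members in that test (SE 0.18, adjusted p = 0.0363). A dim probe set of Lss disagreed at E9.0, with 0.003, and gave -1.13 at E10.5 (adjusted p = 0.0267 with all probe sets tested).

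The enzymes that trim lanosterol to cholesterol were mixed. Cyp51, which removes a methyl group from lanosterol, read 7.91, 8.26 and 7.74 in E9.0 wild type and 8.75, 8.79 and 8.43 in knockout, then 9.48, 9.40 and 9.78 in E10.5 wild type and 8.91, 9.26 and 9.40 in knockout. The groups were apart at E9.0 and touched at E10.5. Its changes were 0.69 (SE 0.17, adjusted p = 0.0740) and -0.36 (adjusted p = 0.248).

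Msmo1, the methylsterol monooxygenase that acts next to Cyp51, read 9.49, 9.85 and 9.41 in E9.0 wild type and 10.13, 10.19 and 9.99 in knockout. At E10.5 the readings were 10.96, 11.16 and 11.05 in wild type and 10.32, 10.55 and 10.64 in knockout. Its groups overlapped at neither stage. The E9.0 change was 0.52 (SE 0.13, adjusted p = 0.0769), at E10.5 it fell by 0.55 (SE 0.13, adjusted p = 0.0210), and the difference of -1.07 passed the test (adjusted p = 0.0367). Its second probe set was dim and gave 0.26 and 0.08.

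Tm7sf2, a sterol reductase of the same stretch, did not share the E9.0 pattern. It read 6.56, 6.78 and 6.91 in E9.0 wild type and 6.72, 6.74 and 6.41 in knockout, which overlap. The E10.5 readings were 7.83, 7.87 and 7.81 in wild type and 7.06, 7.26 and 7.62 in knockout, with all knockout arrays lower. Its changes were -0.13 (adjusted p = 0.833) at E9.0 and -0.52 (SE 0.15, adjusted p = 0.0480) at E10.5, and the difference of -0.40 was not called (adjusted p = 0.658).

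Sc5d, the lathosterol desaturase, read 9.53, 9.66 and 9.15 in E9.0 wild type and 10.14, 10.13 and 9.72 in knockout. In E10.5 yolk sacs it read 10.63, 10.56 and 10.68 against 10.49, 10.56 and 10.52. It was higher in knockout on all E9.0 arrays, by 0.55 (SE 0.14, adjusted p = 0.0853), and the E10.5 groups touched, with a change of -0.10. The other enzymes passed neither test: Nsdhl had 0.32 and -0.14, Hsd17b7 0.28 and -0.28, Dhcr7 0.46 and -0.21, and Ebp 0.01 and 0.003. Dhcr7, which makes cholesterol from its last precursor, had the widest spread of these, with E9.0 wild type arrays at 7.68, 7.86 and 8.61.

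**Figure D2:**
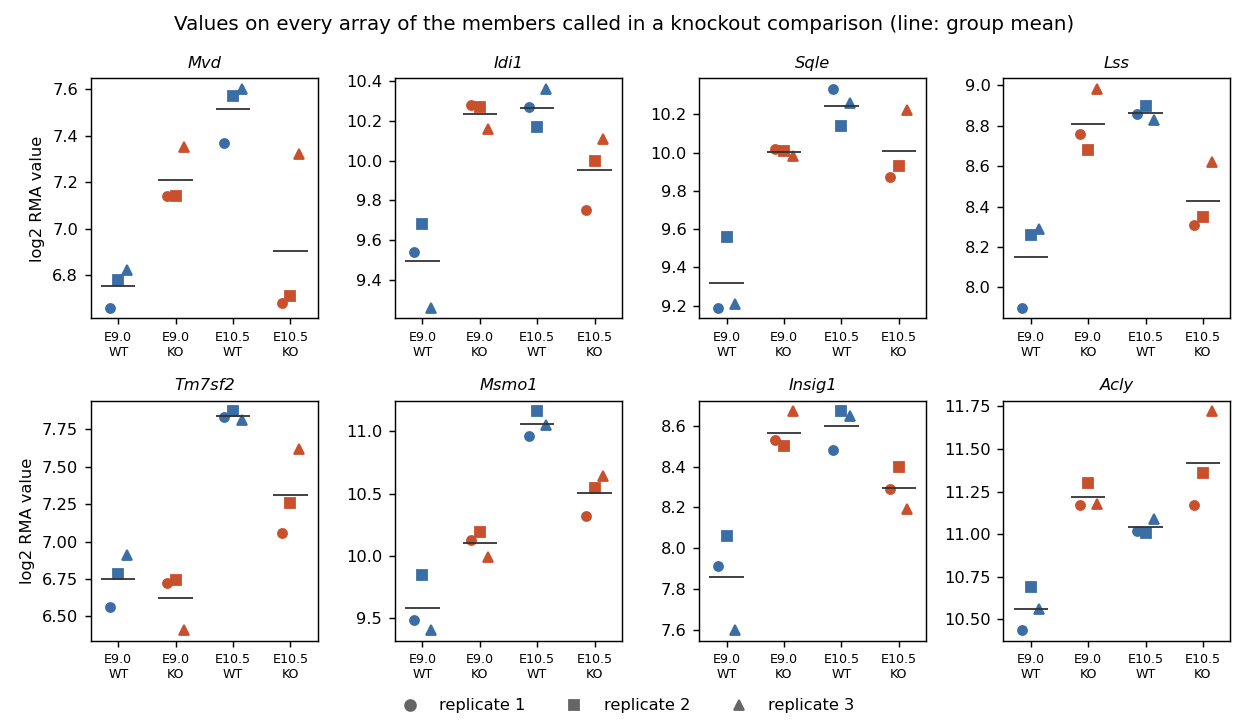
Log2 value on each of the 12 arrays for the 8 members called in a knockout comparison, by stage and genotype, with 1 symbol per replicate number and a line at each group mean. In Idi1, Lss, Msmo1, Mvd and Insig1 the knockout arrays lie above wild type at E9.0 and below it at E10.5, and replicate 3 is the highest E10.5 knockout array in 7 of the 8 genes, all but Insig1.

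Among the 6 genes of SREBP control, 1 was called. Insig1, which retains SREBP in the endoplasmic reticulum and is itself an SREBP target, read 7.91, 8.06 and 7.60 in E9.0 wild type and 8.53, 8.50 and 8.67 in knockout. At E10.5 its arrays gave 8.48, 8.67 and 8.65 in wild type and 8.29, 8.40 and 8.19 in knockout. It rose by 0.71 at E9.0 (SE 0.12, 1.64-fold, adjusted p = 0.0197), the E10.5 change was -0.31 (adjusted p = 0.167), and the difference of -1.02 passed the test (SE 0.17, adjusted p = 0.0363). Its groups overlapped at neither stage, and its lowest E10.5 knockout array was replicate 3.

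The genes that encode the SREBP machinery had smaller changes, and none passed a knockout test over all arrays. Srebf1 and Srebf2, which encode the SREBP factors, had E9.0 changes of 0.05 and 0.16 and E10.5 changes of -0.37 (adjusted p = 0.318) and -0.23 (adjusted p = 0.620). The E10.5 change of Srebf1 was -0.56 within replicates 1 and 2, where it passed the test (adjusted p = 0.0359), and 0.01 within replicate 3. Insig2, the second retention protein, had 0.21 and 0.03, and Stard4, which carries cholesterol between membranes, had 0.06 and 0.10. Scap, the escort, had 0.31 and -0.18, and it lies close to Setd2 on chromosome 9, with 4 RefSeq genes between them. Array values of transcripts do not measure SREBP cleavage.

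Of the 9 fatty acid genes 1 was called, and their E9.0 median was 0.23 where that of the sterol enzymes was 0.49. Acly, which splits cytosolic citrate to acetyl-CoA for both branches, read 10.44, 10.69 and 10.56 in E9.0 wild type and 11.17, 11.30 and 11.18 in knockout. At E10.5 it read 11.02, 11.01 and 11.09 in wild type and 11.17, 11.36 and 11.72 in knockout. Here the knockout was above wild type on all arrays of both stages. Acly rose by 0.65 at E9.0 (SE 0.13, 1.57-fold, adjusted p = 0.0301), its E10.5 change was 0.38 (SE 0.13, adjusted p = 0.104), and the difference of -0.28 was not called (adjusted p = 0.767). A second bright probe set gave 0.67 and 0.25.

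Scd1, a stearoyl-CoA desaturase, read 8.77, 8.73 and 8.59 in E9.0 wild type and 8.69, 8.85 and 8.60 in knockout, where the groups overlapped. At E10.5 the readings were 8.19, 7.98 and 8.60 in wild type and 7.36, 7.31 and 8.34 in knockout. Replicates 1 and 2 of the knockout were the low ones and replicate 3 lay within the wild type range. The E10.5 change was -0.59 (SE 0.23, adjusted p = 0.173). The 2 probe sets of Scd1 disagreed: the brighter one had 0.02 at E9.0, and the dimmer one gave -0.66 at E9.0 (adjusted p = 0.0898) and -0.98 at E10.5 (adjusted p = 0.00408 with all probe sets tested).

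The other fatty acid genes passed neither test. Fasn, the fatty acid synthase, had 0.39 and -0.09, and Elovl6, which elongates its product, had 0.34 and -0.16. Fasn lay wholly above wild type at E9.0, at 9.92 to 10.03 against 9.47 to 9.64. Acaca, which makes malonyl-CoA, had -0.09 and -0.30, and Acss2, which activates acetate, had 0.14 and 0.18. Of the desaturases, Scd2 had 0.23 and -0.23, Fads1 0.02 and 0.08, and Fads2 0.35 and -0.07.

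The calls at E9.0 rested on few arrays. With wild type replicate 1, knockout replicate 1 or knockout replicate 3 left out, 0 of the 5 passed (limma adjusted p from 0.0517 to 0.118), and with any 1 other array left out 3 passed, Idi1 and Insig1 with Sqle (without wild type replicate 2) or Lss. The changes of the 5 stayed between 0.53 and 0.84. Within replicates 1 and 2 the median over members was 0.31, and within replicate 3 it was 0.29, with 29 of 33 members above 0. For the 18 sterol enzymes these were 0.50 and 0.55. With replicates 1 and 2 alone none of the 5 passed (adjusted p from 0.0581 to 0.0831). With the replicate 3 batch as a block, 11 members were called higher, the 5 named and Hmgcs1, Fdps, Fdft1, Cyp51, Msmo1 and Sc5d, and so were 1.24% of all genes in that fit.

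The E10.5 change differed between the batches. The median over members was -0.34 within replicates 1 and 2 and -0.04 within replicate 3, where 19 of 33 members were below 0. For the sterol enzymes it was -0.35 and -0.17, with 14 of 18 below 0 in replicate 3. The median of the fatty acid genes turned, from -0.18 to 0.15 (2 of 9 below 0 in replicate 3), and that of the SREBP control genes went from -0.32 to 0. With knockout replicate 3 left out 8 members were called lower, where 4.5% of all genes were, among them Lss (-0.53, adjusted p = 0.0285), Mvk (-0.52, adjusted p = 0.0312) and Scd1 (-0.92, adjusted p = 0.00524). With wild type replicate 2, wild type replicate 3 or knockout replicate 1 left out 0 were called lower (adjusted p of Msmo1, Mvd and Tm7sf2 from 0.0580 to 0.191), 2 passed without wild type replicate 1 (Msmo1 and Mvd) and 1 without knockout replicate 2 (Msmo1). Acly alone was called higher when knockout replicate 1 was left out (0.50, adjusted p = 0.0464), and it was the 1 member called higher with the replicate 3 batch as a block (adjusted p = 0.0482).

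The difference between stages was of the same sign in both batches, at a median of -0.61 within replicates 1 and 2 and -0.24 within replicate 3. For the sterol enzymes it was -0.85 and -0.63, and for the fatty acid genes -0.52 and 0.01. Its 4 calls also rested on few arrays. With 8 of the 12 arrays left out in turn (all but E9.0 wild type replicates 2 and 3 and E10.5 knockout replicates 2 and 3), 0 of them passed, with adjusted p from 0.0531 to 0.118. Within replicates 1 and 2 none of the 4 passed either (adjusted p from 0.0566 to 0.103), and Mvd was the 1 member called (adjusted p = 0.0322). Over all 12 fits with an array left out the 4 changes stayed between -1.21 and -0.89. Without E9.0 wild type replicate 3, Lss and Insig1 passed, where 0.0824% of all genes were called lower. Without E9.0 wild type replicate 2 there were 4 calls, with Sqle in place of Lss (0.0605% of all genes). Without E10.5 knockout replicate 3 there were 7 (0.148%), with Sqle, Mvd, Fdps and Hmgcs1 added and Insig1 lost (adjusted p = 0.0517).

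**Figure D3:**
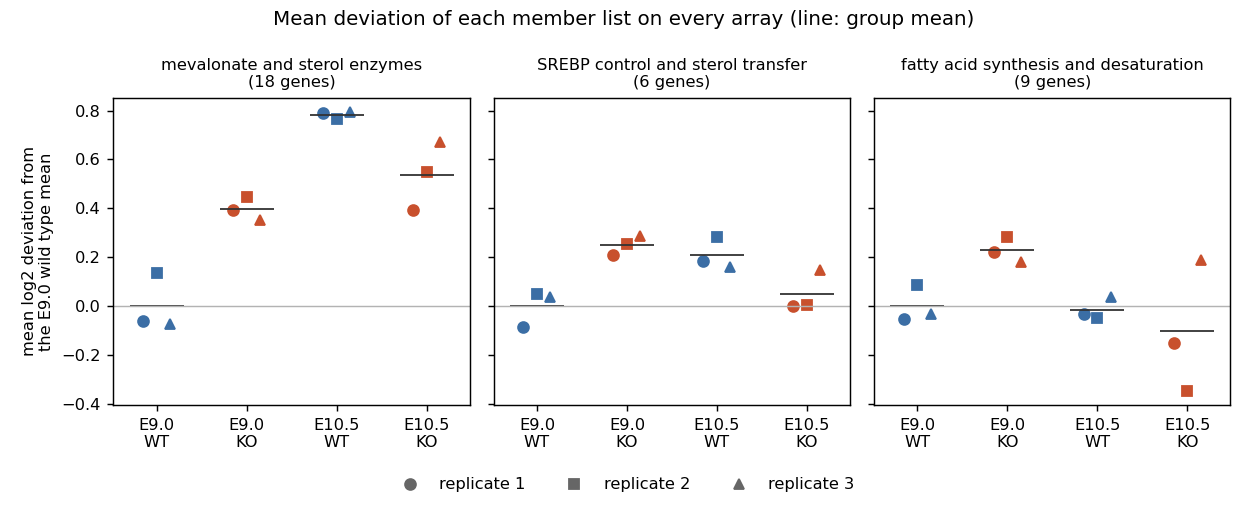
Mean log2 deviation of each member list from the E9.0 wild type mean, 1 point per array, with a line at each group mean. The sterol enzymes of the E9.0 knockout lie between 0.35 and 0.45, those of the E10.5 wild type between 0.76 and 0.79, and those of the E10.5 knockout spread from 0.39 to 0.67.

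Averaged over the 18 sterol enzymes, the E9.0 knockout arrays stood 0.39, 0.45 and 0.35 above the E9.0 wild type mean in replicates 1 to 3. The E10.5 wild type arrays stood 0.79, 0.76 and 0.79 above it, and the E10.5 knockout arrays 0.39, 0.55 and 0.67. The knockout groups of both stages thus lay between the wild type levels of E9.0 and E10.5. The 9 fatty acid genes had another shape: 0.22, 0.28 and 0.18 in the E9.0 knockout, -0.03, -0.05 and 0.04 in the E10.5 wild type, and -0.15, -0.35 and 0.19 in the E10.5 knockout, where the arrays lay on both sides of 0.

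The stage comparisons set the transcript values at E10.5 against those at E9.0 within each genotype. In wild type, 18 of 33 members were called higher and 1 lower at E10.5, with a median change of 0.50 against 0.03 over all genes, where 13.4% were called higher and 8.86% lower. Of the 18 sterol enzymes 14 rose, led by Cyp51 with 1.58 (3.00-fold, adjusted p = 5.04e-05), Msmo1 with 1.47, Fdft1 with 1.18 and Sc5d with 1.18. The 4 that were not called were Mvk, Ggps1, Hsd17b7 and Dhcr7. With all probe sets tested, a dimmer one of Mvk rose by 0.53 (limma adjusted p = 0.0303). Ggps1 had -0.25 at its brightest, and dimmer ones rose by 0.38 (adjusted p = 0.0168) and 0.46 (0.0128), with another uncalled at 0.17. A dim one of Hsd17b7 rose by 0.43 (0.0204), with others uncalled at 0.13 and -0.32. A dim one of Lss rose by 1.08 (0.0127), with another uncalled at 0.16. Dim probe sets of Hmgcs1, Fdps, Fdft1 and Msmo1 were not called. Insig1 and Insig2 rose by 0.74 and 0.54. Of the fatty acid genes, Elovl6 and Acly rose by 0.62 and 0.48 and Acaca fell by 0.60.

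In the knockout, 8 members were called higher and 5 lower between the stages, with a median of -0.07, and all genes were at 14.4% and 9.17%. Fdft1 rose by 0.82, Tm7sf2 by 0.69, Cyp51 by 0.53, Sc5d by 0.53, Ebp by 0.49 and Msmo1 by 0.40, and Pmvk and Insig2 rose as well. Lss fell by 0.38, and the other falls were all in fatty acid genes: Scd1 by 1.04, Fasn by 0.83, Acaca by 0.80 and Scd2 by 0.40. Sqle and Hmgcs1 had 0.003 and 0.06, against rises of 0.92 and 0.93 in wild type. These stage comparisons share their arrays with the knockout comparisons above, so they restate the same values from another side, and what else may have differed between the arrays of each stage cannot be told apart from stage.

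The stage counts depend on scaling. Centring each array on its median over all genes tested, each at 1 probe set, moved the median gene by -0.10 in wild type and by -0.13 in knockout. The share of calls that were higher then went from 60.1% to 41.5% of all genes called in wild type and from 61.1% to 35.0% in knockout. Among members it gave 17 higher and 2 lower in wild type, where 9.61% and 13.5% of all genes were called. In knockout it gave 2 higher and 10 lower, against 8.96% and 16.6% of all genes. Single arrays moved the knockout counts too: 3 members were called higher without E10.5 replicate 2 (11.3% of all genes) or E9.0 replicate 3 (11.5%). Without E9.0 replicate 1 there were 5 (11.4%). The lower calls were 9 without E10.5 replicate 3 (11.6%) and 3 without any 1 of the other knockout arrays (5.74% to 7.17%).

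**Figure D4:**
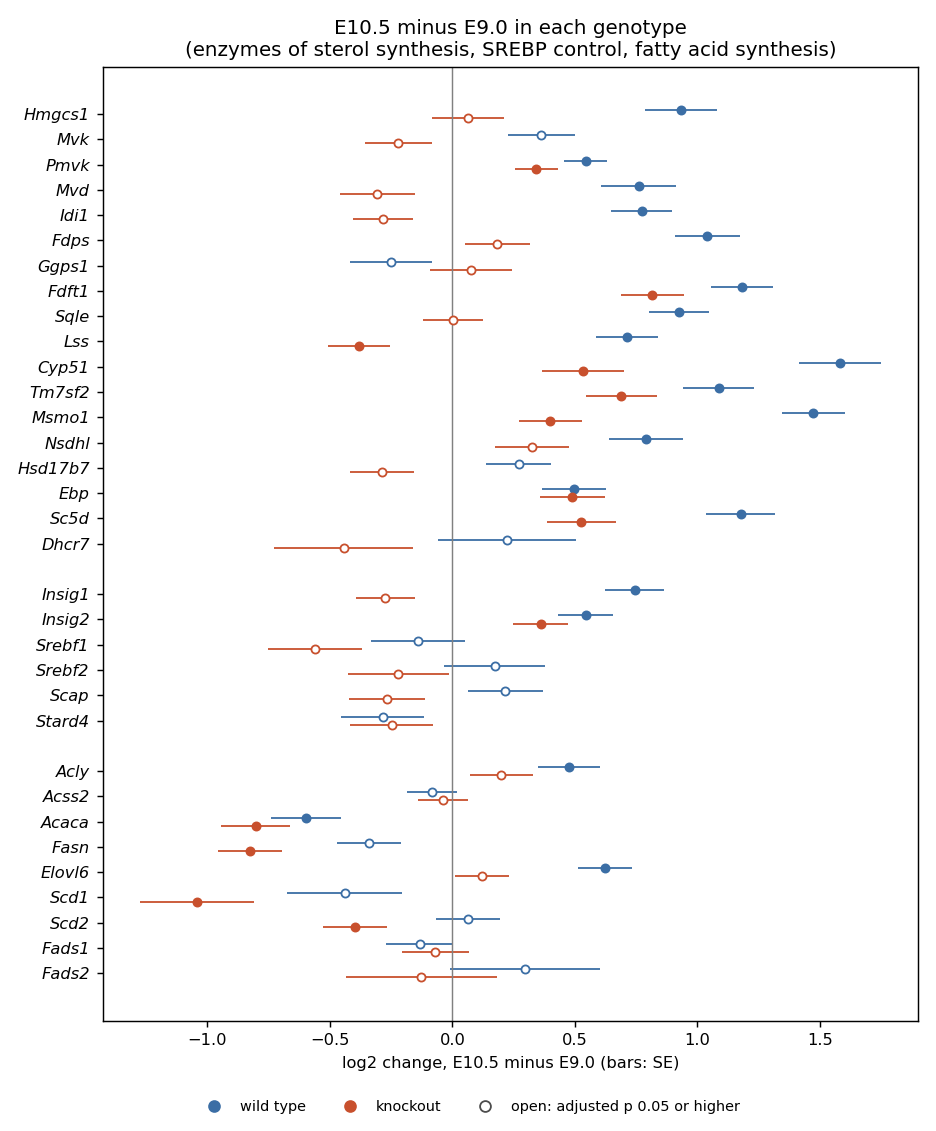
Log2 change, E10.5 minus E9.0, of the 33 members in wild type (blue) and knockout (orange), with the SE of the fit as bars and filled points where the adjusted p was under 0.05. For 29 of the 33 members the knockout point lies left of the wild type point, and Ggps1, Stard4, Acss2 and Fads1 lie the other way.

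Other genes of lipid handling were counted from wider lists. Of 8 further sterol and isoprenoid genes 0 were called in either knockout comparison, with medians of 0.01 at E9.0 and -0.12 at E10.5 (limma, with 1 gene at an unadjusted p under 0.05 in each). Of 26 further fatty acid synthesis genes, 1 was called at E9.0 and 4 at E10.5. The E9.0 call was higher, where 0.55% of all genes were. At E10.5 there were 1 higher and 3 lower calls, where 4.12% and 3.16% of all genes were called. Me1, the malic enzyme that supplies NADPH for lipid synthesis, was higher at both stages, by 0.97 (SE 0.13, adjusted p = 0.00538) and 0.59 (adjusted p = 0.0184). At E10.5 Acsl4, an acyl-CoA ligase for polyunsaturated fatty acids, fell by 0.81, Oxsm of mitochondrial fatty acid synthesis by 0.52, and the elongation enzyme Hsd17b12 by 0.48. Of 15 fatty acid oxidation genes 0 were called in either, with 5 and 1 at an unadjusted p under 0.05. At E9.0, 14 of the 15 had a change above 0, with a median of 0.18, and 5 lay wholly above wild type, where 8.56% of all genes did. With stage 11 of them rose in wild type, where 13.4% of all genes did.

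The lists on the far side of sterol balance held other changes. Of 10 genes of sterol efflux, storage and oxysterols, 1 was called at E9.0 and 5 at E10.5. The E9.0 call was lower, where 0.632% of all genes were. At E10.5 there were 2 higher and 3 lower calls, where 4.12% and 3.16% of all genes were called. Abcg5, part of a sterol exporter, was lower at both stages, by -0.69 (SE 0.13, adjusted p = 0.0284) and -0.64 (adjusted p = 0.0112). At E10.5 Abca1, which loads cholesterol onto apolipoproteins, fell by 0.57 (adjusted p = 0.00728), Cyp27a1, which hydroxylates the sterol side chain, fell by 0.56, and Cyp7b1, which clears oxysterols, rose by 0.79 (adjusted p = 0.0112). The fifth call was Ch25h, which makes an oxysterol, with 0.55 (adjusted p = 0.0466). Cyp7b1 and Ch25h read 4.96 and 4.52 on average in the E10.5 knockout, below the median of every array, and whether they were above background was not tested. Of 10 genes that process SREBP, turn over Insig or encode NF-Y and Sp1, 0 were called at E9.0 (2 at an unadjusted p under 0.05) and Nfyb, a subunit of NF-Y, rose by 0.46 at E10.5 (adjusted p = 0.0251). Of 9 genes of sterol uptake and transport 0 were called at either stage, with 1 and 3 at an unadjusted p under 0.05.

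Genes that ran most like Idi1 were sought over all 18193, by Pearson correlation over the 12 arrays after each stage mean was subtracted. The members nearest to it were Cyp51 (r = 0.961), Sqle (0.956) and Fdps (0.955), with Insig1 at 0.908. Ggps1 was farthest, at -0.46, and Tm7sf2 lay at 0.20. Outside the members the 5 nearest were E030042O20Rik (0.931), Otog (0.916), Etfa (0.886), Bcor (0.882) and C730049O14Rik (0.868). Bcor and C730049O14Rik were called higher at E9.0, by 0.61 and 0.66. The 12 arrays share the genotype groups, so this likeness is a description of these arrays.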

How the data were processed

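Total RNA of yolk sacs, pooled by the sample description, was labelled and hybridised to 12 arrays, from 5 µg of total RNA per the labels' protocols. The authors deposited log2 values. The submitters' processing notes name RMA, with no version. RMA normalises arrays to 1 distribution, gives no detection call, and compresses changes of dim probe sets, and the number of arrays limits the precision. The 45101 probe sets had deposited values of 2.03 up to 14.49. The 64 control probe sets were left out. Through the platform annotation 34945 probe sets had 1 gene symbol, 932 several and 9160 were not listed, and those with 1 symbol gave 18193 genes, each taken at its probe set with the highest mean. All 33 members matched a RefSeq gene by identifier.

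Groups and replicate numbers came from the sample titles. The design text calls the 3 arrays of a group biological repeats. limma 3.58.1 in R 4.3.3 was fitted to all 12 arrays with 1 mean per group (8 residual degrees of freedom), with two-sided tests and Benjamini-Hochberg adjustment over all genes in each of 5 comparisons, at a threshold of 0.05. The replicate 3 batch was read from control probe sets and not from a label. Alternatives were scaling, probe set choice, a filter on dim genes, the variance model, the arrays in the fit, both blocks, and each array left out.

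The members and the other lists were chosen with earlier results of these data known. Given with every array value are members called in a knockout comparison or in the difference of effects, and up to 6 more by smallest p in each knockout comparison. Up to 4 called genes are named from each other list.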

Additional observations from a re-analysis of the deposited data

Results flagged for a closer look

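Lss, Msmo1, Idi1 and Insig1 are given again here because their knockout effect differed between E9.0 and E10.5 by a test of the difference itself. The difference of effects, E10.5 minus E9.0 on the log2 scale, was -1.09 for Lss, -1.07 for Msmo1, -1.06 for Idi1 and -1.02 for Insig1. In each of the 4 genes all 3 knockout arrays lay above wild type at E9.0 and all 3 lay below it at E10.5. None of the 4 passed within replicates 1 and 2 alone. The cause was not tested.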

How the results depend on the processing

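The medians of members kept their sign in each comparison under each other setting, except the knockout stage median, which ran from -0.11 to 0.04 with single arrays left out. Counts of calls moved more. Members called higher at E9.0 (5) were 3 with the mean of all probe sets (without Lss and Acly), where 0.489% of all genes were. They were 1 with only the 6 arrays compared (0.17% of all genes). The replicate 3 batch block gave 11 (1.24%), and replicates 1 and 2 alone gave 0 (0.253%). At E10.5 the lower calls (3) were 1 with only the 6 arrays compared, where 1.9% of all genes were called lower. They were 5 with the batch block (5.28%) and 7 with replicates 1 and 2 (4.63%). The batch block also gave 1 higher call, where 6.16% of all genes were called higher. Mvd and Msmo1 were lost with the mean of all probe sets (adjusted p = 0.0571 and 0.273), Tm7sf2 with all probe sets tested (0.0655) and with trend and robust variance (0.0524), and Mvd and Tm7sf2 with the 6 arrays. The difference (4 lower) gave 0 at the brightest probe sets with all probe sets tested, where 0.0275% of all genes were called lower. It gave 0 with dim genes left out, a fit that called 0 of 9099 genes in either direction. The batch block gave 9 (0.209% of all genes). Replicates 1 and 2 gave 1 (0.077%), which was Mvd and none of the 4. Msmo1 also lost its call with the mean of all probe sets (adjusted p = 0.183) and Insig1 with further quantile normalisation (0.0551). Wild type stage calls lower (1) were 2 with median centring and 2 with replicates 1 and 2 (13.5% and 8.12% of all genes). Knockout stage calls higher (8) were 2 with median centring, 4 with the 6 arrays and 5 with replicates 1 and 2. Of all genes 8.96%, 10.6% and 14.6% were called higher there. Lower calls (5) were 10, 3 and 9 in the same fits, against 16.6%, 5.95% and 12.3% of all genes. They were 3 with the mean of all probe sets (9.56%) and 3 with all probe sets tested (8.1%). With single arrays left out the E9.0 higher calls ran from 0 to 3, where 0.0879% to 0.451% of all genes were called. At E10.5 the lower calls ran from 0 to 8 (1.64% to 4.5%) and the higher calls from 0 to 1 (2.17% to 4.46%). Those of the difference ran from 0 to 7 (0.011% to 0.165%). In the wild type stage comparison higher calls ran from 16 to 18 (9.98% to 12.8%) and lower calls stayed at 1 (5.35% to 7.07%). In the knockout one both ran from 3 to 9 (11.3% to 14.7% higher, 5.74% to 11.6% lower). The Msmo1 stage change in knockout turned to -0.053 with the mean of all probe sets, 1 of them dim. The causes were not tested. Replicate numbers are shared between genotypes, but the deviations of same-numbered arrays correlated at 0.03, 0.23 and 0.24 at E9.0 and 0.26, 0.07 and 0.40 at E10.5, so the numbers were not taken as pairs. A replicate block within stage gave 11 members higher at E9.0 (0.841% of all genes), 4 lower at E10.5 (4.64%) and 5 lower in the difference (0.269%). It ended the calls of Tm7sf2 at E10.5 (adjusted p = 0.0617) and of Insig1 in the difference (0.0514). Such a block cannot be fitted to the stage comparisons.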
